A study of Homo sapiens with 3 samples.

Results

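Fatty acid synthase, stearoyl-CoA desaturase and 5 genes of sterol synthesis and its control (FASN, SCD, SQLE, HMGCS1, FDFT1, FDPS and INSIG1) were followed through the clusters of C-to-U editing left by an RBFOX2-APOBEC1 fusion. Clusters were taken by the gene name in their gene field, not by any measured value. The genes themselves were chosen with earlier results of these data known. SCD, HMGCS1, INSIG1, FDFT1 and FASN held 34 of the 40843 clusters, with 13 of 14295, 10 of 15181 and 11 of 11367 in replicates 1, 2 and 3. SQLE and FDPS held 0 clusters in each replicate, which says that no window in them passed the authors' filter and not that they were unedited or unexpressed. Of the 34 clusters, 17 lay in SCD, and SCD was the gene that held loci found in all 3 replicates.

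All 3 samples are biological replicates of 1 condition. The sample titles name HEK293T human embryonic kidney cells, and the cell line label gives HEK293XT, the lenti-X HEK293T line used for lentivirus packaging, with a wild-type genotype. The cells expressed the fusion after induction with doxycycline, and the labels give 72 h as the time. The labels give transient transfection as the treatment, while their growth protocol speaks of stable lines. Cells without the fusion or with APOBEC1 alone were not analysed here, so editing by the fusion and editing or base differences without it cannot be told apart.

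The 7 genes belong to lipid synthesis in the cytosol and endoplasmic reticulum. FASN builds palmitate from acetyl-CoA and malonyl-CoA, and SCD puts the first double bond into saturated fatty acids. HMGCS1 makes HMG-CoA, FDPS makes farnesyl diphosphate, FDFT1 joins farnesyl units into squalene, and SQLE oxidises squalene on the way to lanosterol. INSIG1 holds the SCAP-SREBP complex in the endoplasmic reticulum when sterols are plentiful and thereby restrains the transcription factors that drive the other genes. RBFOX2 is a splicing regulator that binds GCAUG in RNA, and the cytidine deaminase APOBEC1 fused to it converts C bases near the places where it binds.

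Each cluster came with its counts. The edit fraction divides edited bases by the C bases read in the cluster, every read counted. The share of edited reads is the number of reads with an edit over all reads of the cluster, and the mean read depth is the average coverage of the cluster. Reads inside clusters numbered 1104249 to 1731304 per replicate, which is not the depth of the libraries. Of 6 genes typical of HEK293 cells, LIN28B held clusters in each replicate and VIM in replicate 3, whereas KRT8, KRT18, PAX2 and NES held 0. Of 5 genes of other cell types (PTPRC, ALB, HBB, COL1A2 and GFAP), 0 held a cluster.

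SCD held 7, 6 and 4 clusters in replicates 1, 2 and 3. That number was reached by 218 of 6999, 423 of 7188 and 824 of 6037 genes with a cluster. Pooled over its clusters, 40 of 6625, 32 of 5048 and 22 of 4825 covered C bases were edited, an edit fraction of 0.604%, 0.634% and 0.456% and on average 0.565% ± 0.0952 (SD, n = 3). The Wilson 95% intervals ran from 0.444% to 0.821%, from 0.449% to 0.894% and from 0.301% to 0.689%. These intervals overlap, which does not show that the replicates were equal. The pooled clusters also lay mostly at different positions, as 2 of the 12 SCD loci were found in all 3 replicates. Intervals cover counting error only and take each covered C base as independent. Edited bases could share a read (40 on 26 edited reads in replicate 1), and several reads may be PCR copies of 1 molecule. The intervals may therefore be too narrow.

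HMGCS1 held 2, 0 and 3 clusters, with a pooled edit fraction of 1.51% in replicate 1 and 1.88% in replicate 3. INSIG1 held 1, 2 and 2 clusters, and its pooled edit fraction was 0.695%, 1.90% and 0.747%. The value of replicate 2 stands above the other two, but it rests on 4 edited bases of 211 covered C bases and its interval, 0.740% to 4.77%, overlaps theirs. FDFT1 held 3, 0 and 1 clusters, at 0.688% and 0.728% in replicates 1 and 3. FASN held 0, 2 and 1 clusters, at 1.43% and 1.14% in replicates 2 and 3. Of all 9904 genes with a cluster, 37.9% had one in each replicate, and among the 5 member genes with clusters this held for SCD and INSIG1.

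**Figure D1:**
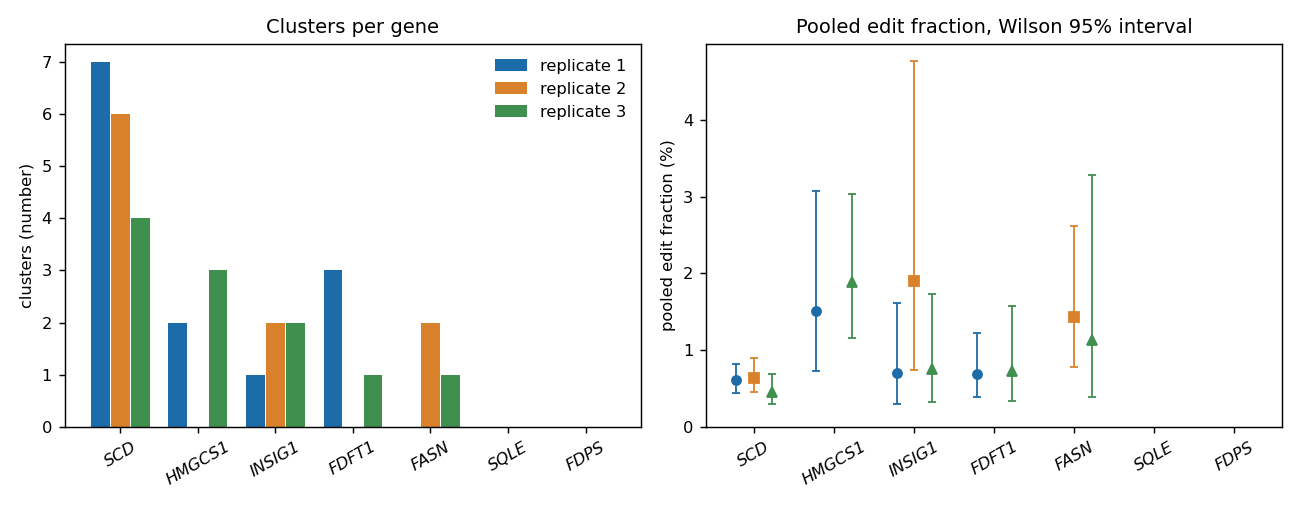
Clusters per gene (left, bars) and pooled edit fraction in % (right, points with Wilson 95% intervals) for the 7 genes in replicates 1, 2 and 3; a gene without a cluster has no point. SCD has the most clusters in each replicate and pooled edit fractions of 0.456% to 0.634%, and SQLE and FDPS have none.

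In ascending order of the mean pooled edit fraction, the genes stood as SCD, FDFT1, INSIG1, FASN and HMGCS1, with means of 0.565%, 0.708%, 1.11%, 1.28% and 1.70%. The mean of INSIG1 rested on replicate 2, being 0.721% without it and, equally, with a minimum of 2 edited reads per cluster. The ranges over replicates of SCD and FDFT1 did not overlap, nor did those of FASN and HMGCS1, whereas INSIG1 overlapped both of its neighbours. The Wilson intervals of SCD and FDFT1 overlapped, as did those of FASN and HMGCS1, and with clusters in 2 or 3 replicates no test between genes was made. Read depth differed between the genes at the ends of this order, with mean depths of 21.4 to 44.8 in the clusters of HMGCS1 and 33.9 to 366 in those of SCD. INSIG1 and FDFT1 differed little in the replicates they share, at 0.695% against 0.688% in replicate 1 and 0.747% against 0.728% in replicate 3. Their median depths there were 99.5 against 45.5 and 90.5 against 80.4. In replicate 1, however, 1073 of the 1598 covered C bases of FDFT1 lay in a cluster of mean depth 144. The median of 45.5 therefore does not describe the depth behind its pooled value. In replicate 2, where FDFT1 had no cluster, INSIG1 stood at 1.90% and a median depth of 50.1. The part of depth in the order was not tested. Taken as the share of edited reads, the order was another one, with 1.27% in FDFT1, 1.97% in SCD, 1.98% in INSIG1, 4.10% in HMGCS1 and 5.02% in FASN (means of the replicates with clusters). As an unweighted mean over clusters, SCD (0.886%) also stood above FDFT1 (0.810%).

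The clusters of SCD were concentrated in the feature that the files name exon 10. It held 5, 6 and 4 clusters, or 15 of the 34 member clusters, between positions 102120882 and 102124511 on the plus strand of chromosome 10 (hg19), a stretch of 3630 bases. Exon numbers in these files rise with the genomic position in each of 1811 plus-strand and 1719 minus-strand genes with clusters in several exons, so they do not follow the usual count of exons in a transcript. The 15 clusters are also assigned to AL139819.1, an overlapping gene with a clone-based name, and whether their reads come from SCD or from that gene was not tested. Only the clusters of replicate 1 at 102107017 to 102107046 (exon 0) and 102108017 to 102108046 (exon 2) name SCD alone. Over exon 10 the pooled edit fraction was 0.591%, 0.634% and 0.456%, or 0.560% ± 0.0929 (SD, n = 3).

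Of the 28 loci formed by merging overlapping member clusters, 2 were found in all 3 replicates, 2 in 2 replicates and 24 in a single one. As shares, 7.14%, 7.14% and 85.7% of member loci were found in 3, 2 and 1 replicates, beside 4.77%, 11.9% and 83.4% of the 33244 loci of the series. These counts rest on starts being taken as counted from 0, which the files do not state. Were they counted from 1, clusters that touch would share a base, and 25 member loci would remain, of which 3 were found in all 3 replicates, 3 in 2 and 19 in a single one, beside 5.30%, 13.2% and 81.5% of 32440 loci of the series in the same order. With starts counted from 0, both loci found in all 3 replicates lay in SCD exon 10.

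The deeper of these SCD loci began at 102123222 in each replicate and ended at 102123251 in replicates 1 and 2 and at 102123266 in replicate 3. In it 8 of 443 reads were edited in replicate 1, 5 of 411 in replicate 2 and 7 of 397 in replicate 3, which are 1.81%, 1.22% and 1.76% of reads. Its edit fraction was 0.717%, 0.480% and 0.438%, or 0.545% ± 0.150 (SD, n = 3). The longer cluster of replicate 3 held 6 C bases beside 3 in the other replicates, so the edit fractions do not cover the same bases. In the second locus, from 102124467 to 102124511 in replicates 1 and 2 and from 102124482 in replicate 3, the edited reads were 4 of 260, 4 of 189 and 2 of 122. These are 1.54%, 2.12% and 1.64% of reads, at an edit fraction of 0.737%, 1.24% and 1.11% (mean 1.03% ± 0.263, SD, n = 3). Both loci had a few edited reads in each library, and no replicate was apart from the other two. A locus without a called cluster in some replicate could not enter this comparison, so it says little about agreement.

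Whether a locus gave the same share of edited reads in each library was tested with an exact Fisher-Freeman-Halton test, adjusted by Benjamini-Hochberg over all 1586 loci found in all 3 replicates. The adjusted p was 1 for both SCD loci (exact p = 0.783 and 0.917 before adjustment, in the same order), so 0 of 2 were called, and 0 had an unadjusted p under 0.05. Over the series 11 of the 1586 loci were called, or 0.694%, and 126 had an unadjusted p under 0.05. With touching clusters joined, another SCD locus, from 102121452 to 102121541, was tested (exact p = 0.447, adjusted p = 1), and 0 of 3 member loci were called, beside 11 of 1718 loci or 0.64%. The test compares libraries of 1 condition, at loci chosen for having a cluster in each, on 2 to 8 edited reads per replicate. The shares behind it are loosely bounded. The Wilson 95% interval of the share of edited reads in the deeper locus ran from 0.521% to 2.82% in replicate 2 and from 0.918% to 3.52% in replicate 1.

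Several member clusters of different replicates lay end to end, without a shared base if starts are counted from 0 and with 1 shared base if they are counted from 1. In SCD, a cluster of replicate 1 ended at 102121481 and a cluster of replicate 2 began at 102121482, and the latter overlapped a cluster of replicate 3 by 15 bases. Their edit fractions were 2.04%, 0.717% and 1.65%, from 2, 5 and 2 edited reads. In INSIG1, the clusters of replicates 1 and 2 met at 155101241 and 155101242 on chromosome 7. In HMGCS1, the clusters of replicates 3 and 1 met at 43298816 and 43298817 on chromosome 5. Counting clusters within 15 bases of each other as 1 locus, the authors' own merging distance, joined these 3 pairs and no others.

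INSIG1 clusters all lay in its exon 10, between 155100792 and 155101421 on the plus strand. The cluster of replicate 1 (155101197 to 155101241) held 5 edited bases of 719. The clusters of replicate 2 held 2 of 124 and 2 of 87, and those of replicate 3 held 2 of 184 and 3 of 485. Every one of the 5 thus rested on 1 to 3 edited reads, and apart from the pair that met at 155101241 none touched a cluster of another replicate.

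The HMGCS1 clusters were spread over exons 0, 8 and 16 on the minus strand. Exon 16, which lies toward the 5' end of the gene since numbers rise with position, held the longest of the member clusters, 120 bases in replicate 3 with 8 edited bases of 518 on 5 of 63 reads. The adjoining cluster of replicate 1 had 5 edited bases of 350, all on 1 of 47 reads. Exon 0, the lowest-numbered exon and therefore on the 3' side, held a cluster at 43289648 to 43289692 in replicate 1 (1.75%) and another at 43290338 to 43290412 in replicate 3 (2.52%). Replicate 2 had no HMGCS1 cluster.

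FASN exon 0, likewise on the 3' side of a minus-strand gene, held the locus that replicates 2 and 3 shared. On chromosome 17 it ran from 80036290 to 80036334 in replicate 2, with 7 edited bases of 401 (1.75%), and to 80036319 in replicate 3, with 3 of 264 (1.14%). Exon 39 added a cluster of replicate 2 with 3 edited bases of 298. In FDFT1 on chromosome 8, 3 clusters of replicate 1 lay in exon 23 within 11696078 to 11696692, at 0.559%, 0.806% and 1.31%, and the cluster of replicate 3 lay in exon 17, at 0.728%. No position in FDFT1 was found in more than 1 replicate.

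**Figure D2:**
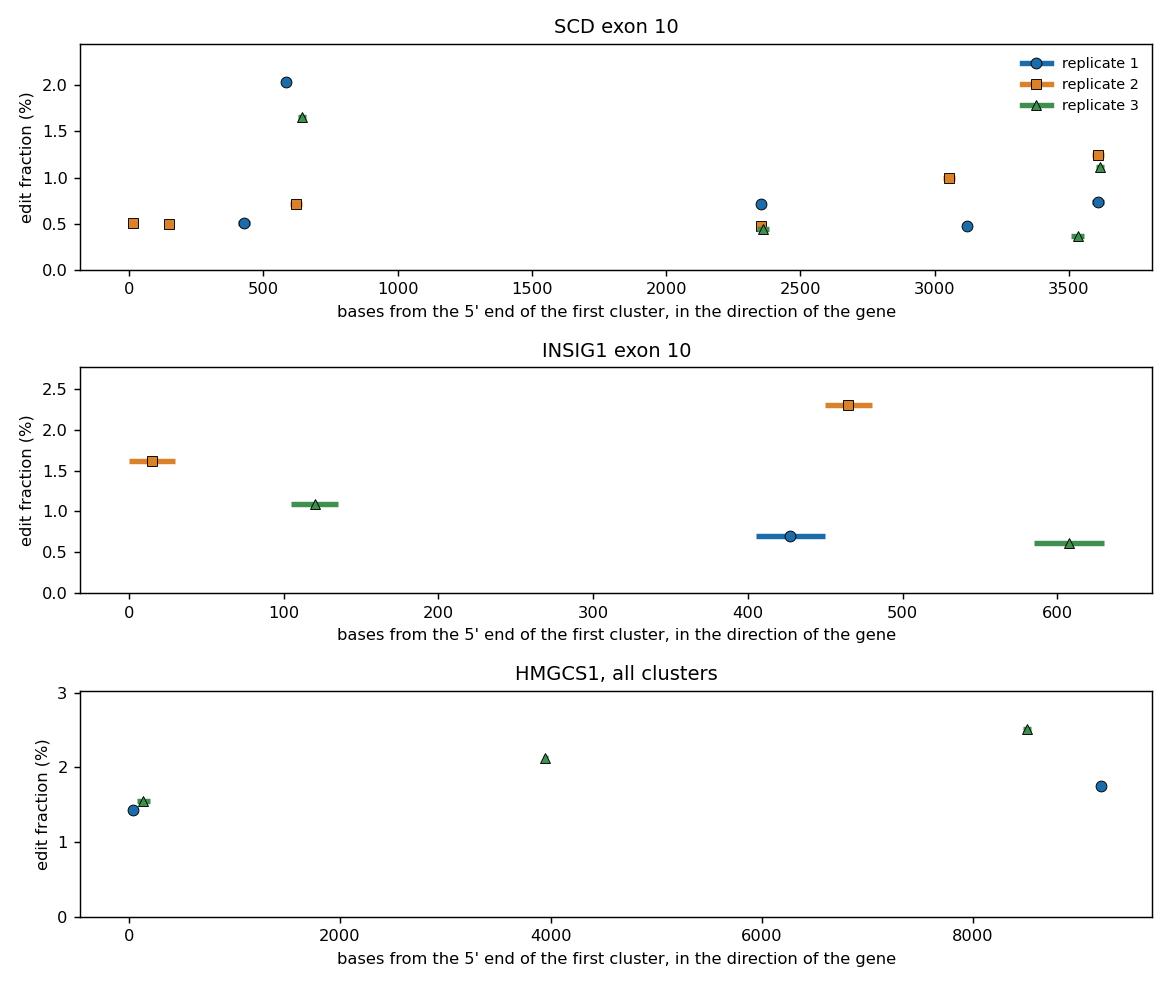
Edit fraction in % of each cluster (line: extent of the cluster, point: its centre) against the distance in bases from the first cluster in the direction of the gene, for SCD exon 10, INSIG1 exon 10 and HMGCS1, by replicate. The extents of clusters of all 3 replicates overlap at 2 places in SCD exon 10, at edit fractions of 0.438% to 0.717% and of 0.737% to 1.24%, whereas in INSIG1 and HMGCS1 clusters of different replicates lie side by side.

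The number of edits per edited read varied among the genes. Of the 34 member clusters, 8 rested on 1 edited read (23.5%, beside 30.5% of the other clusters), and each of these reads carried 2 to 6 edited bases. Several edits on the read were usual for such clusters in the series. Of the 12461 other clusters with 1 edited read, 10445 held at least 2 edited bases and 3020 at least 4, beside 8 and 4 of the 8 member clusters. In the FDFT1 cluster of exon 17 and the HMGCS1 cluster of replicate 3 in exon 0, 6 edited bases came from 1 read. In the SCD cluster of exon 2, 4 came from 1 read. With starts counted from 0, none of the 8 clusters overlapped one of another replicate, although those of INSIG1 at 155101242 and HMGCS1 at 43298817 touched one. Most loci lay in a single replicate anyway, 85.7% of member loci and 83.4% of those of the series. How many of the other clusters with 1 edited read lay in a single replicate was not determined. SCD had 1 edited read in 1 of its 17 clusters, and the remaining genes in 7 of 17. In both SCD loci found in all 3 replicates, the edited bases equalled or exceeded the edited reads by no more than 1. The largest count, 15 edited bases, was that of the SCD cluster at 102121287 to 102121331 in replicate 1, on 4 of 292 reads.

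**Figure D3:**
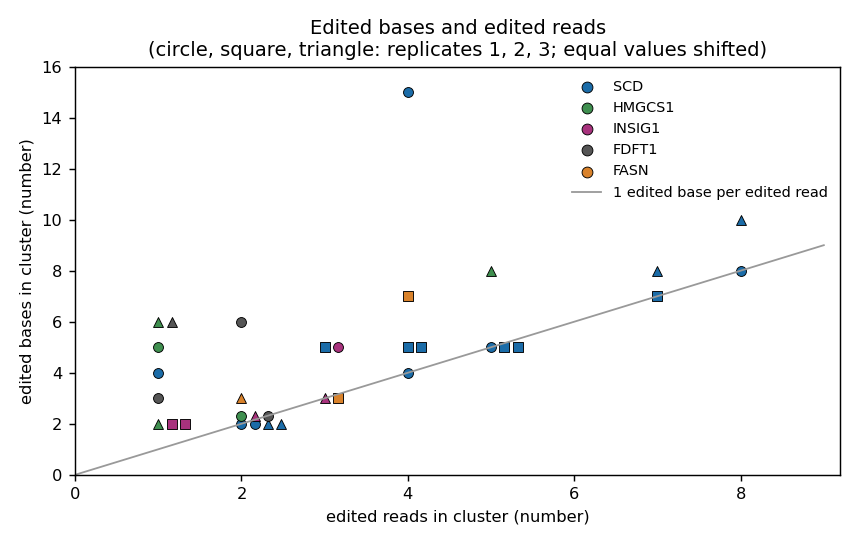
Edited bases against edited reads in the 34 clusters of the 5 genes that held any, coloured by gene and marked by replicate; the line marks 1 edited base per edited read. SCD clusters lie mostly near the line, and the clusters with 1 edited read carry 2 to 6 edited bases.

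Compared with the rest of the series, the member clusters were deeper and had lower edit fractions. Their median mean read depth was 99.5, 92.7 and 60.8 in replicates 1, 2 and 3, beside 25.1, 24.6 and 21.0 for the other clusters. The median edit fraction was 0.737%, 0.999% and 1.11%, or 0.949% ± 0.192 (SD, n = 3), beside 1.64%, 1.65% and 1.80%, or 1.70% ± 0.0901. The members were lower in 3 of 3 replicates, for which an exact sign change over replicates gives a two-sided p of 0.25, the smallest that 3 replicates allow. Without SCD, a choice made after the values were seen, the median of the members was 1.06%, 1.68% and 1.14%, lower than that of the other clusters in replicates 1 and 3 and higher in replicate 2, at a median depth of 43.7 to 48.0.

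Within classes of read depth the direction of the difference varied from class to class. At a depth of at least 50, the median edit fraction of the 22 member clusters was 0.627%, 0.855% and 0.673%, and that of the 11173 other clusters was 0.775%, 0.794% and 0.783%. The members were lower in replicates 1 and 3 and higher in replicate 2, with a mean difference of -0.0654 ± 0.111 percentage points (SD, n = 3), and with means in place of medians it was -0.246 ± 0.103. This class does not match the clusters for depth, since its median depths were 154, 95.6 and 100 in the members and 92.1, 91.8 and 88.8 in the others. At depths of 50 to 100, 100 to 200 and at least 200, divided once values were known, the mean differences were -0.0303, 0.0627 and -0.0596 percentage points. At a depth of 30 to 40 the 5 member clusters were higher in 3 of 3 replicates, with medians of 2.20%, 1.65% and 1.60% beside 1.40%, 1.39% and 1.39%, a mean difference of 0.424 percentage points. At depths of 20 to 30 and 40 to 50, where replicate 2 had no member cluster, the mean difference was 0.182 and -0.0278 percentage points, from 4 and 3 member clusters. Set against the median of the other clusters in the same replicate and depth class, with the deepest class divided at 100 and 200, 17 of the 34 member clusters lay above and 17 below. In SCD 9 of 17 lay above, in HMGCS1 4 of 5, in INSIG1 3 of 5, in FASN 1 of 3 and in FDFT1 0 of 4.

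**Figure D4:**
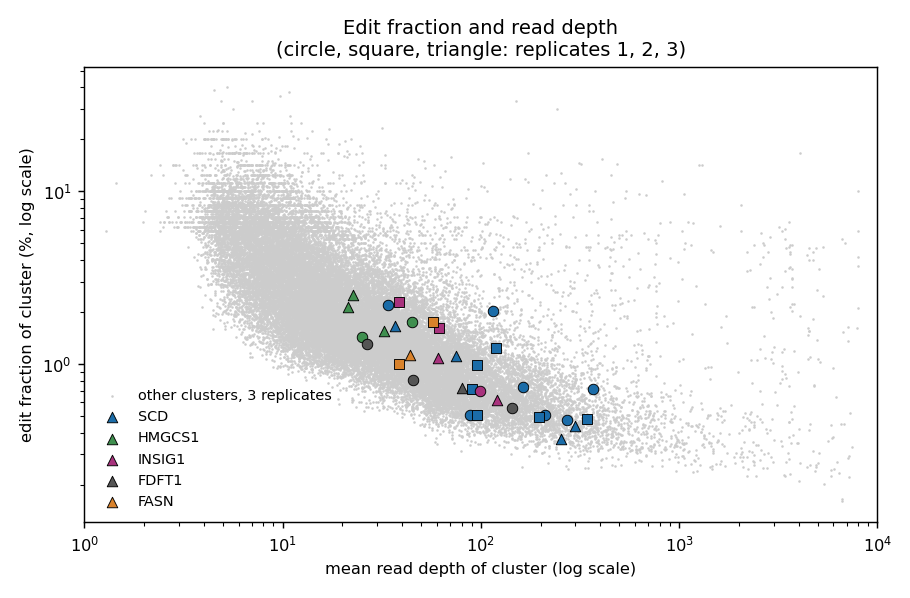
Edit fraction in % against mean read depth of each cluster, both on log axes, for the other clusters of the 3 replicates (grey) and the 34 clusters of the 5 genes (coloured by gene, marked by replicate). The coloured points follow the downward slope of the grey ones, with SCD reaching depths of 366 and HMGCS1 between 21.4 and 44.8.

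Member clusters also held fewer C bases. The median was 6 C bases per cluster in each replicate beside 9 in the others, and 13.3 C bases per 100 bases of cluster beside 18.8 ± 1.12 (SD, n = 3). In SCD the density was 10.0, 13.3 and 11.7 per 100 bases. In 0 of 34 member clusters, and in 2.19%, 2.39% and 1.78% of the other clusters, was the feature an intron. The authors' score was at least 0.99 in 30.1% ± 8.81 (SD, n = 3) of member clusters and in 60.7% ± 0.546 of the others, and at least 0.95 in 94.4% ± 4.90 and 96.4% ± 0.639. Scores of at least 0.99 were thus rarer among the members in 3 of 3 replicates (exact two-sided p = 0.25 by sign change, the smallest possible, as above). The paper computes the score from the edit fraction of the cluster, so this is not separate from the lower edit fractions given above.

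Of 18 further genes of sterol synthesis, 14 held a cluster, 5 of them in all 3 replicates. Over the 3 lists of further lipid genes, 19 of the 46 genes with a cluster had one in each replicate, or 41.3%, beside the 37.9% of all genes with a cluster. In the sterol synthesis list, the 3 genes with the most covered C bases were EBP, IDI1 and SC5D. EBP, a sterol isomerase, had an edit fraction of 0.597% from replicate 2 alone. IDI1, which isomerises isopentenyl diphosphate, had 0.956% and 0.621% in replicates 1 and 2. SC5D, a sterol desaturase, had 1.29%, 0.982% and 2.34%. Of 14 genes of sterol regulation, uptake and storage, 11 held a cluster, 4 of them in all 3 replicates. SREBF2, the transcription factor of sterol synthesis, held 4, 4 and 2 clusters at 0.681%, 0.576% and 0.772%. NPC2, a lysosomal cholesterol carrier, had 0.611% and 1.06% in replicates 1 and 3, and SOAT1, which esterifies cholesterol, had 1.87%, 2.36% and 3.58%. INSIG2, the paralog of INSIG1, held 3 clusters in replicate 1 (3.66%) and 0 in the other replicates.

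Of 29 further genes of fatty acid synthesis, elongation, desaturation and activation, 21 held a cluster, 10 of them in all 3 replicates. HACD3, listed as PTPLAD1 and a dehydratase of fatty acid elongation, had 0.876%, 0.603% and 1.15%. ACLY, which supplies cytosolic acetyl-CoA, had 0.763%, 0.910% and 0.801%, and HSD17B12, a reductase of elongation, had 0.736%, 0.834% and 2.75%. ACACA, which makes the malonyl-CoA that FASN uses, held 1 cluster each in replicates 1 and 2, at 2.04% and 1.96%.

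Among the 3753 other genes with clusters in all 3 replicates, those most like SCD in pooled edit fraction and covered C bases were AL139819.1, with which it shares 15 clusters, and UQCR10, a subunit of respiratory complex III. UQCR10 had edit fractions of 0.494%, 0.604% and 0.508% over 7291, 5631 and 4527 covered C bases. The mean distance over the 3 replicates, on log2 scales of both values, was 0.0688 and 0.225. Those most like INSIG1 were SSR1 at a distance of 0.328, with 0.693%, 1.79% and 1.28%, and MYH9 at 0.485, with 0.780%, 2.50% and 0.90%. The likeness is a description over 3 replicates of 1 condition.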

How the data were processed

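Deposited clusters of C-to-U editing in 3 replicates were analysed. Per the study's methods, the authors called edited positions with SAILOR and discarded common SNPs. FLARE then scanned 30-base windows, kept those with an adjusted p up to 0.1 and joined windows within 15 bases. The submitters' processing notes name hg19 and STAR, without versions. The deposited counts of bases and reads are unscaled whole numbers. The fraction of edited bases and the fraction of edited reads given by the authors were recomputed from these counts in all 40843 clusters. The deposited mean depth is a coverage signal that is not scaled to library size, and the authors' score is a negative binomial cumulative probability. Only clusters that passed the filter were analysed, and starts, whose base the files do not state, were taken as zero-based, so 1 was added.

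SciPy 1.17.1, pandas 2.3.3, matplotlib 3.10.9 and NumPy 2.4.6 were run under Python 3.11.15. Clusters of the same strand sharing 1 base or more formed a locus. A cluster naming several genes counted for each. Edited reads were compared between replicates with a two-sided exact Fisher-Freeman-Halton test, called at an adjusted p under 0.05, and the code was tested on simulated data. With few reads per cluster, depth limits the precision of each value. Named were all 7 members, their loci found in all 3 replicates, the 2 genes most like a member and the 3 genes per pathway list with the most covered C bases. INSIG2 and ACACA were named after their values were seen. The members and lists were chosen with earlier results of these data known. Sequences of the clusters were not used here.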

Additional observations from a re-analysis of the deposited data

How the results depend on the processing

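Over 12 results, 102 values were recomputed under other settings, of which 62 stayed within the spread between replicates or within 1.5 times a count, 36 moved and 4 reversed. A minimum score of 0.99 left 3.33 member clusters per replicate in place of 11.3, raised their pooled edit fraction from 0.714% to 1.00% and left 0 loci, and 0% of clusters, in all 3 replicates. A minimum depth of 50 gave 7.33 clusters, a pooled value of 0.608%, a median of 0.718% and 27.8% of clusters in all 3 replicates (17.9% before). The 17.9% stood beside 11.2% ± 1.71 (SD, n = 3) of the other clusters in the main setting, at a mean of the median depths of 84.3 against 23.6. The part of depth in these shares was not tested. For the other settings the share of the other clusters is not given, so those shares have no comparison. The 17.9% came from SCD alone, since the share was 0% among members without SCD. A minimum of 2 edited reads gave a pooled value of 0.661% and a share of 23.3%. With edited reads over all reads, the pooled value was 2.18%, the median 2.33% and the difference from other deep clusters -0.689 percentage points. The share of edited reads is another measure than the edit fraction, so its level cannot be set against the main values. Its values are nevertheless counted among the 36 that moved. With means, the difference in edit fraction was -0.246. The unweighted mean of the genes was 1.06%. The difference reversed at depths of 20 to 30 (0.182) and 30 to 40 (0.424). No member had a depth under 20.

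Some settings were added once values were known. The difference also reversed at a depth of 100 to 200 (0.0627) and without SCD (0.228), where the pooled value was 1.17% and the median 1.29%. Clusters naming a member alone numbered 6.33, with a pooled value of 1.16% and a median of 1.29%. Gaps of at most 15 bases, and likewise touching clusters counted as shared, gave a share of 21.2%. Apart from these added settings, leaving out each replicate in turn gave shares of 16.8% to 38.2% and 2 to 4 loci found in both remaining replicates, the highest of both without replicate 1. The test of member loci found in every replicate compared gave 0 calls under each alternative run, and which loci these were changed with the setting. Loci of the same bounds in all replicates (174) included no member. The causes of these shifts were not tested. Since there is 1 condition, no replicate pairing between groups arises.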

Other observations

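Of 61 further lipid genes on the 3 lists, 46 held 203 clusters (79, 72 and 52 in replicates 1, 2 and 3), and 19 held a cluster in each replicate, which is 41.3% of the 46 beside 37.9% of the 9904 genes of the series with a cluster. Among these 19, the highest mean pooled edit fractions, looked up after the values were seen, were those of MBTPS2, ELOVL4 and GPAM. MBTPS2, a protease that releases SREBP from the membrane, had 7.49%, 5.71% and 4.0% over 307, 245 and 200 covered C bases. ELOVL4, an elongase of very long fatty acids, had 6.82%, 2.72% and 5.63% over 44, 257 and 71. GPAM, which starts glycerolipid synthesis, had 7.88%, 2.73% and 2.71% over 292, 330 and 332. Their covered C bases were far fewer than the 4825 to 6625 of SCD, and the part of read depth in these values was not tested.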
